A study of Homo sapiens with 12 samples.

Results

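The enzymes that write, copy and erase DNA methylation, and the enzymes that feed them, were followed as 10 genes through 12 RNA sequencing libraries of HEL cells, an established human erythroleukemia line used as a model of acute myeloid leukemia (AML). The genes were DNMT1, DNMT3A, DNMT3B, UHRF1, UHRF2, TET1, TET2, TET3, IDH1 and IDH2, chosen by name out of the 26481 genes with a complete row of counts, and all 10 of 10 passed the filter on low counts that left 14164 genes for testing. The libraries form 4 groups. NT was untreated cells kept with dimethyl sulfoxide (n = 2), Doxo was cells that had regrown after 1.8 µM doxorubicin (n = 3), Doxo + Cyta was cells that had regrown after the same doxorubicin dose with 6 µM cytarabine (n = 3), and Doxo + Cyta + DAC was cells that had regrown after both drugs with 0.1 µM decitabine (n = 4). Each drug exposure lasted 72 h, and the RNA came from relapses collected about 30 days later, when the culture had grown back to the number of cells seeded. All groups derived from 1 barcoded HEL line, a mixture of clones each marked by a DNA tag, so a relapse is a cell population that outgrew the treatment in culture and not a drug response measured during exposure. DNA methylation and protein were not analysed here, only RNA.

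DNMT1 copies methylation onto the new DNA strand after replication, and UHRF1 recognises the half-methylated CpG left by replication and brings DNMT1 to it. UHRF2 is the closest relative of UHRF1, and DNMT3A and DNMT3B add methyl groups to unmethylated CpG. The TET enzymes oxidise methylcytosine and so start its removal, using 2-oxoglutarate, which IDH1 makes in the cytosol and IDH2 in mitochondria. Decitabine is a cytosine analogue that traps the methyltransferases on DNA, and DNMT3A, TET2, IDH1 and IDH2 are among the genes recurrently mutated in AML.

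The sequences just upstream of the transcription start are shown for UHRF1, TET1 and IDH2, the members with the 3 largest log2 differences between Doxo + Cyta + DAC and Doxo + Cyta. The CpG is the step of the sequence that the methyltransferases and TET enzymes act on. Each is the part of the 250 bases before the GENCODE canonical start that lies outside the exons of the gene's other transcripts, read from GRCh38 on the gene's own strand, with every CpG in capitals.

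UHRF1, chr19:4909251-4909429, plus strand: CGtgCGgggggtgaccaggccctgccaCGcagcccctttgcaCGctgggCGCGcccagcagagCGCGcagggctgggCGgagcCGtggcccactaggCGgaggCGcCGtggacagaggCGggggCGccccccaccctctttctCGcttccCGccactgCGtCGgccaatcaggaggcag

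TET1, chr10:68560087-68560336, plus strand: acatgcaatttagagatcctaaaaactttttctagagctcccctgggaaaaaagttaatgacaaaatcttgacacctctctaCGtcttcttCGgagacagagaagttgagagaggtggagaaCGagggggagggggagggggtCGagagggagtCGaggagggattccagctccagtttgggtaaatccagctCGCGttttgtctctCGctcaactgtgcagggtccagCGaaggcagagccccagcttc

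IDH2, chr15:90102478-90102718, minus strand: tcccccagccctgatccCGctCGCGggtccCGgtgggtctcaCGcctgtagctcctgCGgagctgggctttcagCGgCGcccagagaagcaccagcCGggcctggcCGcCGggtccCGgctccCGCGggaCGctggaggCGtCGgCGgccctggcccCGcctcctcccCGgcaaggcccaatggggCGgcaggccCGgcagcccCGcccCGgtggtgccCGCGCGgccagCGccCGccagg

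The whole 250-base window held 28 CpGs at UHRF1, 30 at IDH2 and 9 at TET1, against a median of 18 (quartiles 7 and 27) over 20046 protein-coding promoters of the same length. TET1 had the fewest CpGs of the 10 members, and TET3 the most with 37. The windows of DNMT1, DNMT3B and UHRF2 held 21, 23 and 23 CpGs, and those of DNMT3A, TET2 and IDH1 held 33, 34 and 17. All 250 bases of the TET2 window and 182 of the DNMT1 window lie in exons of other transcripts of the same gene. Windows with more CpGs than the median were found both at members that were higher and at members that were lower after decitabine. Methylation of the windows was not analysed, and the part of CpG number in the members' levels was not tested. The E2F-type octamers TTTCGCGC, TTTGGCGC and TTTCCCGC were searched on both strands, and 1 of the 10 windows held one, TTTCCCGC in reverse at position -14 of UHRF1, outside the printed stretch. Any of these octamers was present in 3.24% of all promoters. A CCAAT box, found in 34.3% of promoters on either strand, was present at UHRF1 (position -86), at IDH2 (position -73) and, in reverse, at 2 places at IDH1.

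Between 12763582 and 19106235 fragments were assigned to genes per library, and a gene with 3 counts, the detection floor used here, stood at 0.154 to 0.237 CPM, the count scaled to the library total. The 11 of 11 erythroid and megakaryocytic marker genes expected of HEL, such as GATA1 and KLF1, had over 3 counts in every library. Their summed level ran from 8350 to 9620 CPM in NT, 9640 to 10400 in Doxo, 10100 to 11200 in Doxo + Cyta and 6540 to 8740 in Doxo + Cyta + DAC, lower than in Doxo and Doxo + Cyta, and its part in the members' levels was not tested. Of 13 markers of T cells, B cells, monocytes, fibroblasts and epithelium, 8 had at most 3 counts in every library, among them CD3D and CD3E, MS4A1, COL1A2 and EPCAM. CD2, CD79A and LYZ, from the T cell, B cell and monocyte lists, had over 3 counts in every library. The summed T cell markers ran from 26.6 to 27.4 CPM in NT, from 46.7 to 55.7 CPM in Doxo, from 35.5 to 51.8 CPM in Doxo + Cyta and from 19.9 to 43.7 CPM after decitabine, and the summed monocyte markers lay between 26.6 and 45.0 CPM in every library. The B cell sum was at most 6.00 CPM, and the part of these markers in the members' levels was not tested. One library stood apart in a way that touches the TET genes. In Doxo + Cyta replicate 20, genes longer than 8 kb had a median log2 CPM of 0.32 below the 12-library mean, while the other 11 libraries lay between -0.05 and 0.16. Genes of up to 1 kb were 0.39 above it there, against -0.17 to 0.05 elsewhere. The 3 TET genes have deposited exon lengths of 9584 (TET1), 15321 (TET2) and 11387 bases (TET3), so the TET differences from Doxo + Cyta are given with and without that library. Doxo replicate 4 differed from the other Doxo libraries in several members, as their values show, and over the whole transcriptome. Its chi-square per degree of freedom, larger where libraries disagree more, was 29.7 and 27.3 against replicates 5 and 6. Between replicates 5 and 6 it was 3.1. For Doxo + Cyta replicate 20 it was 46.7 and 48.5 against replicates 19 and 22, and 7.33 between those.

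**Figure D1:**
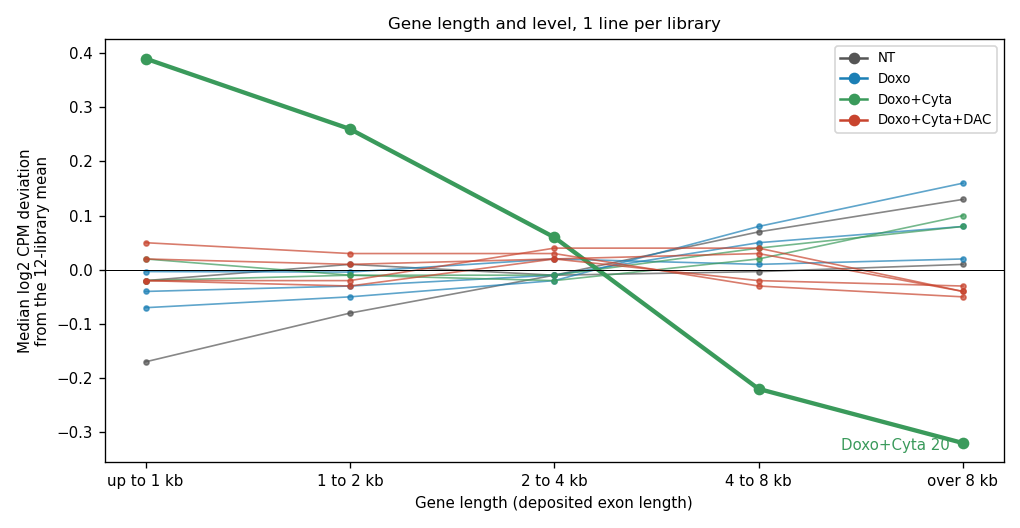
Median difference of log2 CPM from the 12-library mean (vertical axis) for genes in 5 classes of deposited exon length (horizontal axis), 1 line per library, coloured by group. Doxo + Cyta replicate 20 runs from 0.39 in the shortest genes to -0.32 in the longest, and the other 11 libraries stay between -0.17 and 0.16 in these end classes.

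Levels were first ordered per length, as FPKM (CPM divided by the deposited exon length in kilobases), since CPM does not allow a comparison between genes. In NT, IDH2 (178 FPKM ± 4.28, SD, n = 2) and DNMT1 (125 ± 10.7) were the most abundant members. UHRF2 (39.9 ± 0.516) and DNMT3B (31.4 ± 2.01) followed. IDH1 (9.74 ± 0.0953), UHRF1 (9.05 ± 0.538), DNMT3A (6.23 ± 0.286) and TET3 (4.89 ± 0.626) formed a lower tier, above TET2 (1.91 ± 0.215) and TET1 (0.642 ± 0.0583). With the deposited lengths, the libraries of neighbours in this order did not overlap in NT, with 2 libraries a gene. In Doxo + Cyta the order was less clear, since the libraries of UHRF1 (4.73 to 6.81 FPKM), DNMT3A (5.10 to 5.54) and TET3 (2.54 to 5.50) overlapped. After decitabine DNMT1 stood first at 192 FPKM ± 19.8 (SD, n = 4) and IDH2 second at 75.6 ± 5.89. UHRF1 reached 26.6 FPKM ± 1.76 there, a level whose libraries (24.0 to 27.9) overlapped those of UHRF2 (20.8 to 26.0), and TET1 stayed last at 0.127 ± 0.0115.

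The relapses after decitabine were set against the Doxo + Cyta relapses, whose drug regimen differed in decitabine alone, and against NT and Doxo. The paper reports that the clones growing out also differed between these regimens, and the part of clones in the members' levels was not tested. DNMT1, DNMT3B and UHRF1 were higher and DNMT3A, UHRF2, TET1, TET2 and IDH2 lower than in Doxo + Cyta, while TET3 and IDH1 did not pass the test. This made 8 of 10 members called at an adjusted p under 0.05 in edgeR, beside 60.3% of all tested genes, and with 10 members this share is near the background. A change of 2-fold or more was seen in 4 members (UHRF1, DNMT1, TET1 and IDH2), beside 26.7% of all genes, and the libraries of the 2 groups did not overlap for 7 members, beside 57.2% of all genes. Against Doxo, 8 of 10 members were called (59.5% of all genes), 3 higher (29.1%) and 5 lower (30.4%), each in its direction against Doxo + Cyta. Against NT, 6 of 10 were called (48.7% of all genes), of which 2 were higher, DNMT1 and UHRF1 (24.9% of all genes), and 4 lower, DNMT3A, UHRF2, TET1 and IDH2 (23.7%). The comparisons share the decitabine libraries and are not independent of each other. In bulk RNA, fewer cells of a type and less RNA per cell cannot be told apart.

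**Figure D2:**
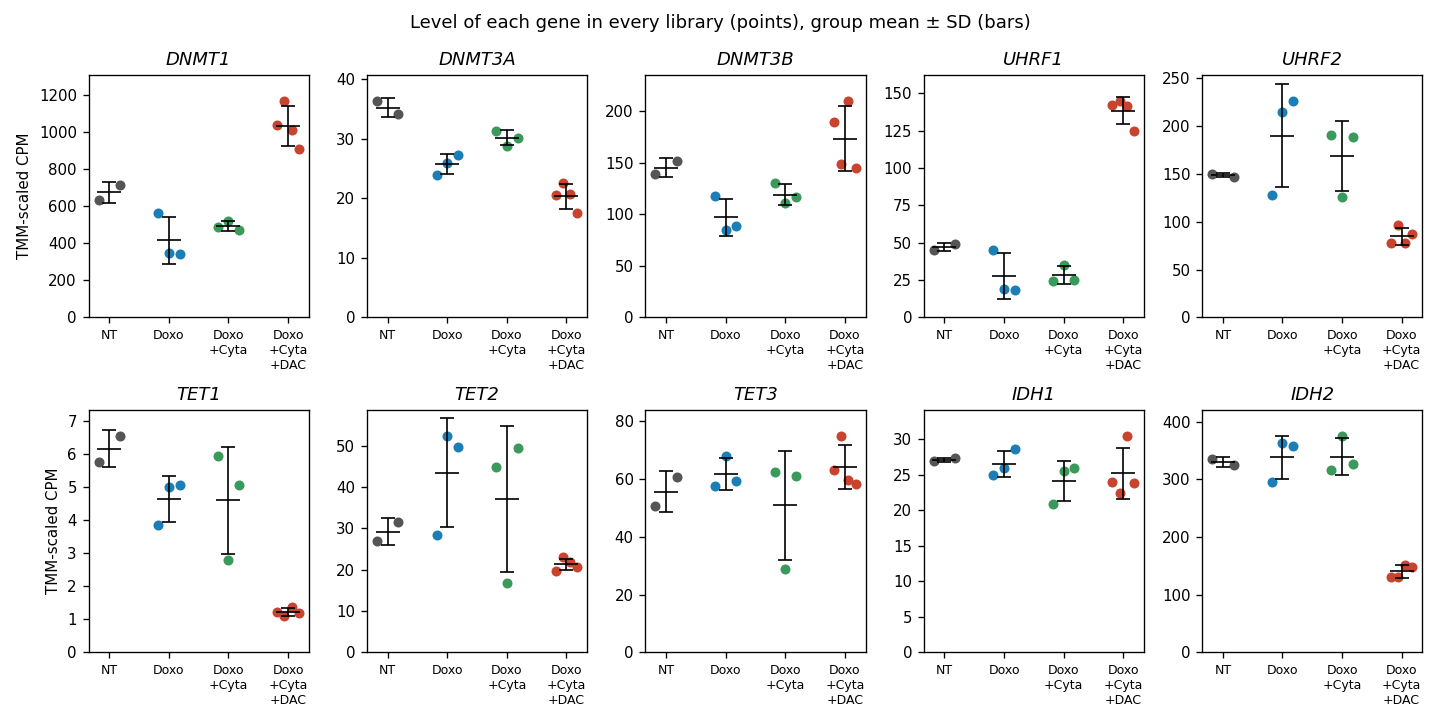
TMM-scaled CPM (vertical axis, from 0, own scale for each gene) of the 10 members in every library, by group on the horizontal axis. Points are libraries, and bars are the group mean ± SD (n = 2 for NT, 3 for Doxo, 3 for Doxo + Cyta and 4 for Doxo + Cyta + DAC). UHRF1 and DNMT1 are highest, and TET1 and IDH2 lowest, in all 4 decitabine libraries.

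Among the maintenance genes, DNMT1 stood at 635 and 717 CPM in NT, at 563, 346 and 344 CPM in Doxo replicates 4, 5 and 6, at 489.6, 522 and 473 CPM in Doxo + Cyta and at 1041, 1171, 1013 and 912 CPM in Doxo + Cyta + DAC. The decitabine libraries lay above all others, and every relapse without decitabine lay below both NT libraries. DNMT1 was 2.09-fold higher after decitabine than in Doxo + Cyta (log2 ratio 1.06, SE 0.16, adjusted p = 5.34e-05) and 2.48-fold higher than in Doxo (1.31, SE 0.16, adjusted p = 1.15e-05). It was 1.53-fold higher than in NT (0.61, SE 0.18, adjusted p = 0.0111), a call that was lost without NT replicate 1 (adjusted p = 0.114).

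UHRF1 had the largest rise among the members. Its level was 45.0 and 49.0 CPM in NT, and 142, 145, 141 and 125 CPM in Doxo + Cyta + DAC. In the relapses without decitabine it was 45.4, 18.7 and 18.6 CPM in Doxo replicates 4, 5 and 6, and 24.6, 35.4 and 24.98 CPM in Doxo + Cyta replicates 19, 20 and 22. Doxo replicate 4 was thus at the NT level, and no library outside the decitabine group exceeded 49.0 CPM. UHRF1 was 4.89-fold higher after decitabine than in Doxo + Cyta (log2 ratio 2.29, SE 0.27, adjusted p = 7.19e-06), 5.04-fold higher than in Doxo (2.33, SE 0.27, adjusted p = 7.64e-06) and 2.94-fold higher than in NT (1.56, SE 0.30, adjusted p = 0.000834). Without Doxo replicate 4, the difference from Doxo was 2.90.

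UHRF2 went the opposite way. It stood at 149.9 and 147 CPM in NT, at 128, 215 and 226 CPM in Doxo, at 190.4, 126 and 189 CPM in Doxo + Cyta and at 77.7, 96.6, 77.5 and 86.8 CPM in Doxo + Cyta + DAC. All 4 decitabine libraries lay below the other 8. The fall was 1.99-fold from Doxo + Cyta (log2 ratio -0.99, SE 0.18, adjusted p = 0.000344), 2.25-fold from Doxo (-1.17, SE 0.18, adjusted p = 0.0001) and 1.75-fold from NT (-0.81, SE 0.20, adjusted p = 0.00484). Among the relapses without decitabine, the lowest UHRF2 libraries, Doxo replicate 4 and Doxo + Cyta replicate 20, were also those with the highest UHRF1. The FPKM ratio of UHRF1 to UHRF2 was 0.215 and 0.238 in NT, 0.253, 0.0623 and 0.0586 in Doxo, 0.0925, 0.201 and 0.0946 in Doxo + Cyta and 1.31, 1.07, 1.31 and 1.03 after decitabine. UHRF1 thus exceeded UHRF2 per deposited length in the 4 decitabine libraries and in none of the other 8. The ratio of UHRF1 to DNMT1 was 0.139 ± 0.00744 (SD, n = 4) after decitabine and 0.0723 ± 0.00188 (n = 2) in NT.

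**Figure D3:**
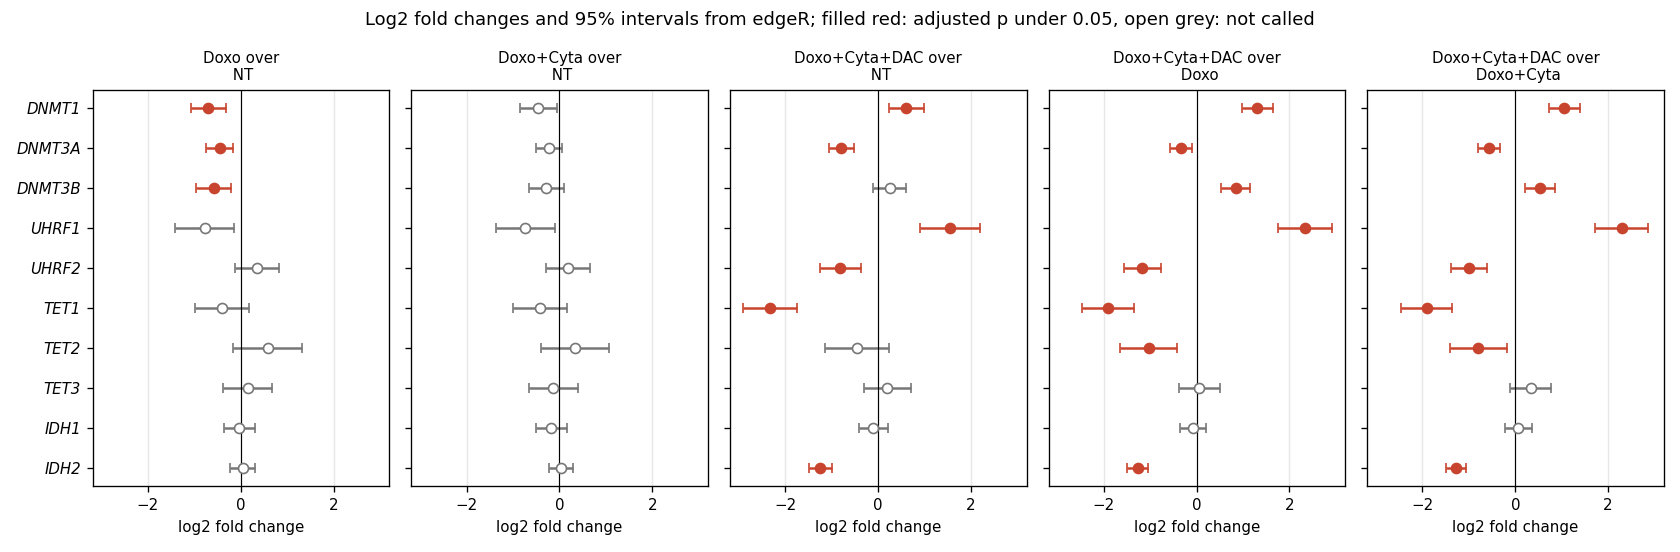
Log2 fold change (horizontal axis) of the 10 members (vertical axis) in 5 comparisons, with 95% intervals from the edgeR fit. Filled red points have an adjusted p under 0.05, open grey points do not. UHRF1 reaches 2.29 and TET1 -1.91 in Doxo + Cyta + DAC over Doxo + Cyta, while no member is called in Doxo + Cyta over NT.

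Of the enzymes that set new methylation, DNMT3A and DNMT3B moved apart. DNMT3B was 139 and 152 CPM in NT, 118, 84.6 and 88.6 CPM in Doxo, 130.0, 111 and 117 CPM in Doxo + Cyta and 189, 149, 210.0 and 145 CPM in Doxo + Cyta + DAC. The decitabine libraries were above all relapses without decitabine and overlapped NT. DNMT3B was 1.46-fold higher than in Doxo + Cyta (log2 ratio 0.54, SE 0.15, adjusted p = 0.006) and 1.79-fold higher than in Doxo (0.84, SE 0.15, adjusted p = 0.00029). Against NT the difference was 0.25 (95% interval -0.11 to 0.61, adjusted p = 0.227) and was not called.

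DNMT3A was 36.4 and 34.1 CPM in NT, 23.9, 26.0 and 27.3 CPM in Doxo, 31.4, 28.9 and 30.2 CPM in Doxo + Cyta and 20.6, 22.6, 20.7 and 17.6 CPM in Doxo + Cyta + DAC. No group overlapped another, with NT highest and the decitabine group lowest. The fall after decitabine was 1.73-fold from NT (log2 ratio -0.79, SE 0.12, adjusted p = 0.000194), 1.48-fold from Doxo + Cyta (-0.57, SE 0.11, adjusted p = 0.000648) and 1.26-fold from Doxo (-0.34, SE 0.11, adjusted p = 0.0199). The call against Doxo was lost without Doxo replicate 5, Doxo replicate 6 or Doxo + Cyta + DAC replicate 33 (adjusted p = 0.0611, 0.0849 and 0.0583).

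Within the summed FPKM of the 3 methyltransferases, DNMT3A made up 3.84% ± 0.468 (SD, n = 2) in NT, 4.64% ± 1.29 (n = 3) in Doxo, 4.35% ± 0.253 (n = 3) in Doxo + Cyta and 1.54% ± 0.0239 (n = 4) after decitabine. Each of the 4 decitabine libraries had a DNMT3A share between 1.53% and 1.58%, and each other library had at least 3.16%. The share of DNMT1 was 76.9% ± 0.704 in NT and 82.3% ± 2.74 after decitabine, and that of DNMT3B 19.3% ± 0.236 and 16.1% ± 2.75. The summed level was 163 FPKM ± 12.4 in NT and 233 ± 20.9 after decitabine, with Doxo at 103 ± 26.9 and Doxo + Cyta at 123 ± 4.03. These shares and sums are descriptions with no test, and they rest on the deposited lengths.

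**Figure D4:**
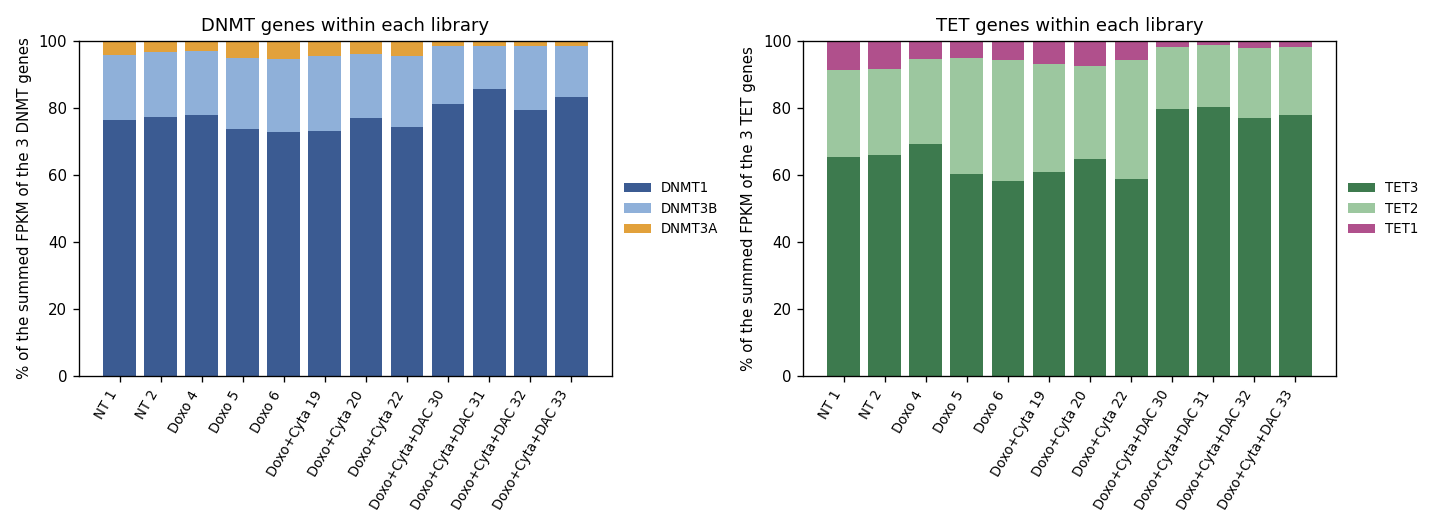
Share (%) of each gene in the summed FPKM of DNMT1, DNMT3A and DNMT3B (left) and of TET1, TET2 and TET3 (right), 1 bar per library. DNMT3A holds at most 1.58% and TET1 at most 2.09% in the decitabine libraries, against at least 3.16% and 5.26% in every other library.

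Among the erasers, TET1 showed the largest fall of the 10 members. Its level was 5.76 and 6.55 CPM in NT, 3.84, 5.00 and 5.05 CPM in Doxo, 5.93, 2.80 and 5.07 CPM in Doxo + Cyta replicates 19, 20 and 22 and 1.22, 1.10, 1.36 and 1.19 CPM in Doxo + Cyta + DAC. The decitabine libraries held 20, 16, 26 and 15 counts of TET1, above the floor of 3, and no other library held fewer than 42. TET1 was 4.99-fold lower than in NT (log2 ratio -2.32, SE 0.27, adjusted p = 2.04e-05), 3.77-fold lower than in Doxo (-1.91, SE 0.26, adjusted p = 2.70e-05) and 3.75-fold lower than in Doxo + Cyta (-1.91, SE 0.26, adjusted p = 2.39e-05). The last difference was -2.16 (adjusted p = 1.94e-06) when Doxo + Cyta replicate 20 was left out.

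TET2 was 26.9 and 31.6 CPM in NT, 28.5, 52.4 and 49.6 CPM in Doxo replicates 4, 5 and 6, 44.8, 16.7 and 49.4 CPM in Doxo + Cyta replicates 19, 20 and 22 and 19.8, 23.0, 21.8 and 20.6 CPM in Doxo + Cyta + DAC. Doxo replicate 4 lay within the NT range, and Doxo + Cyta replicate 20, the library low in long genes, lay below all others. TET2 was 2.04-fold lower after decitabine than in Doxo (log2 ratio -1.03, SE 0.29, adjusted p = 0.00673) and 1.74-fold lower than in Doxo + Cyta (-0.80, SE 0.29, adjusted p = 0.027). The second call rested on single libraries. It did not hold without Doxo + Cyta replicate 19 or 22 (adjusted p = 0.108 and 0.148) or without Doxo + Cyta + DAC replicate 30 or 33 (adjusted p = 0.0604 and 0.0542), and it was -1.15 (adjusted p = 0.000139) without Doxo + Cyta replicate 20. Against NT, the TET2 difference was -0.46 (95% interval -1.15 to 0.24, adjusted p = 0.26), although all decitabine libraries lay below both NT libraries. With only the compared groups in the fit, it was -0.49 and was called (adjusted p = 0.00475 in edgeR).

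TET3, the most abundant TET gene per length in all 12 libraries, was not called in any comparison. It was 50.7 and 60.7 CPM in NT, 57.5, 68.1 and 59.5 CPM in Doxo, 62.6, 28.9 and 61.1 CPM in Doxo + Cyta and 63.1, 75.1, 59.8 and 58.4 CPM after decitabine. Apart from Doxo + Cyta replicate 20, all libraries lay between 50.7 and 75.1 CPM. The difference between the relapses with and without decitabine was 0.33 against Doxo + Cyta (95% interval -0.11 to 0.78), and 0.05 without replicate 20. With an offset for gene length fitted in every library, it was 0.39 (adjusted p = 0.032). Within the summed FPKM of the 3 TET genes, TET1 made up 8.65% ± 0.262 (SD, n = 2) in NT, 5.53% ± 0.302 (n = 3) in Doxo, 6.70% ± 0.830 (n = 3) in Doxo + Cyta (a mean of 6.33% without replicate 20) and 1.80% ± 0.289 (n = 4) after decitabine. The share of TET3 was 65.7% ± 0.470 in NT and 78.7% ± 1.55 after decitabine, and the TET sum was 7.44 FPKM ± 0.899 and 7.15 ± 0.723. TET1 was the smallest contributor to that sum in every library.

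The 2 isocitrate dehydrogenases differed from each other. IDH2 was 336 and 325 CPM in NT, 296, 363 and 357 CPM in Doxo, 316, 376 and 327 CPM in Doxo + Cyta and 130.2, 132, 151 and 148 CPM in Doxo + Cyta + DAC. The highest decitabine library (151 CPM) lay below the lowest of the other groups (296 CPM), and the other 3 groups overlapped. IDH2 was 2.42-fold lower than in Doxo + Cyta (log2 ratio -1.28, SE 0.10, adjusted p = 3.27e-07), 2.42-fold lower than in Doxo (-1.27, SE 0.10, adjusted p = 5.4e-07) and 2.35-fold lower than in NT (-1.24, SE 0.11, adjusted p = 3.47e-06). These were the smallest adjusted p-values among the members. IDH1 lay between 20.9 and 30.5 CPM in all 12 libraries and was not called in any comparison, with a difference of 0.06 (95% interval -0.22 to 0.35) between Doxo + Cyta + DAC and Doxo + Cyta. The ratio of IDH2 to IDH1 in FPKM was 18.3 ± 0.619 (SD, n = 2) in NT, 19.2 ± 1.63 (n = 3) in Doxo, 21.2 ± 2.03 (n = 3) in Doxo + Cyta and 8.42 ± 0.828 (n = 4) after decitabine.

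The relapses without decitabine were set against NT to ask what doxorubicin, alone or with cytarabine, left behind. In Doxo, DNMT1, DNMT3A and DNMT3B were lower, 3 of 10 members beside 10.7% of all genes, and 4.63% of all genes were called lower. The log2 fold changes were -0.70 (SE 0.18, adjusted p = 0.0271) for DNMT1, -0.45 (SE 0.13, adjusted p = 0.0436) for DNMT3A and -0.58 (SE 0.17, adjusted p = 0.0462) for DNMT3B, so all 3 methyltransferases fell by 1.37-fold to 1.62-fold. These calls were close to the threshold. None of the 3 was called without NT replicate 1, NT replicate 2, Doxo replicate 5 or Doxo replicate 6. Without Doxo replicate 4, 5 members were called, the 3 methyltransferases and UHRF1 (-1.36, adjusted p = 0.000458) lower and UHRF2 (0.54, adjusted p = 0.0427) higher. With replicate 4, UHRF1 was at -0.78 (95% interval -1.41 to -0.14, adjusted p = 0.107).

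In Doxo + Cyta over NT, 0 of 10 members were called in edgeR and 0 in DESeq2, beside 1.46% of all genes in edgeR. At an unadjusted p under 0.05, 2 members passed, DNMT1 (-0.45, 95% interval -0.84 to -0.06) and UHRF1 (-0.73, 95% interval -1.37 to -0.09), beside 20.4% of all genes. DNMT3A and DNMT3B were at -0.22 and -0.29, with intervals that included 0. TET1, TET2 and TET3 were at -0.41, 0.34 and -0.13, and without Doxo + Cyta replicate 20 at -0.18, 0.67 and 0.13, not called in either fit. IDH2 was at 0.04 in both Doxo and Doxo + Cyta, with intervals of -0.23 to 0.30 and -0.22 to 0.30. Adding cytarabine to doxorubicin, compared directly as Doxo + Cyta over Doxo, gave 0 called members in edgeR, 0 at an unadjusted p under 0.05 and 0 in DESeq2, beside 3.4% and 18.9% of all genes in edgeR. Without Doxo replicate 4, 2 members were called higher in Doxo + Cyta, DNMT1 (0.53, adjusted p = 0.0191) and UHRF1 (0.62, adjusted p = 0.0403). TET1, TET2 and TET3 were at -0.01, -0.23 and -0.28 in this comparison, and at 0.25, 0.12 and 0.01 without Doxo + Cyta replicate 20, again not called.

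The genes that work beside these enzymes were described from 6 lists, by counts and medians and with no test of a list. In Doxo + Cyta + DAC over Doxo + Cyta, the median log2 fold change of all tested genes was 0.00025, and 29.8% were called higher and 30.5% lower. Of 14 tested genes listed as partners of methylation maintenance, 8 were higher and 2 lower (median 0.44). PCNA, HELLS and CDCA7, 3 of the 8, are also in the S phase list. Of the other 11 genes, which may still act in replication, 5 were higher and 2 lower (median 0.23). The highest was PCNA, the replication clamp that DNMT1 binds, at 113 CPM ± 1.74 (SD, n = 2) in NT, 123 ± 20.0 (n = 3) in Doxo, 87.4 ± 32.9 (n = 3) in Doxo + Cyta and 216 ± 9.30 (n = 4) after decitabine. PCNA rose 2.47-fold from Doxo + Cyta (1.31, SE 0.19, adjusted p = 4.26e-05). The lowest was UBE2L6, an ISG15-conjugating enzyme, with -0.56 (SE 0.10, adjusted p = 0.000246), but against NT it was at -0.19 and not called (adjusted p = 0.186).

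Of 10 genes listed as readers of methylated CpG, by family and without regard to whether each binds it, 1 was higher and 3 lower (median 0.01). Against Doxo, 1 was higher and 5 lower (median -0.38), beside 29.1% and 30.4% of all genes. Compared with Doxo + Cyta, MBD3, a subunit of the NuRD remodelling complex, was 2.29-fold higher (1.19, SE 0.30, adjusted p = 0.00371). ZBTB4, a zinc finger repressor that binds methylated CpG, was 2.31-fold lower than in Doxo + Cyta (-1.21, SE 0.15, adjusted p = 9.79e-06). MBD3 libraries spread widely within Doxo (34.2 to 88.6 CPM) and Doxo + Cyta (49.6 to 96.0 CPM), and both ranges lay below the decitabine group (133 CPM or more). Against NT, MBD3 was at 0.81 and not called (adjusted p = 0.0653). Among TET partners and base excision repair genes, 4 of 14 were higher and 4 lower (median 0.06). TDG, the glycosylase that removes oxidised methylcytosine, was 40.1 to 45.5 CPM in NT, 43.8 to 49.5 in Doxo, 37.4 to 40.9 in Doxo + Cyta and 109 to 132 after decitabine. It rose 3.06-fold from Doxo + Cyta (1.61, SE 0.11, adjusted p = 8.67e-08). Of the TET enzymes, which act before TDG, TET1 was lower, and TET2 was lower by a call that rested on single libraries. TET3, the most abundant of them per length, was not called (0.33). XRCC1, the scaffold of the later repair steps, was 1.81-fold lower (-0.85, SE 0.11, adjusted p = 1.21e-05).

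For the supply of S-adenosylmethionine, the methyl donor, 5 of 10 genes were higher and 2 lower (median 0.05). Leaving out Doxo + Cyta replicate 20 gave 5 lower, and leaving out replicate 19 or 22 gave 3 higher. MAT2A, which makes the donor, was 250 CPM ± 19.4 (SD, n = 2) in NT, 177 ± 35.3 (n = 3) in Doxo, 167 ± 14.1 (n = 3) in Doxo + Cyta and 347 ± 27.4 (n = 4) after decitabine. It was 2.09-fold higher than in Doxo + Cyta (1.06, SE 0.13, adjusted p = 8.95e-06). AHCYL2, a relative of the enzyme that clears the used donor, was 1.69-fold lower (-0.76, SE 0.19, adjusted p = 0.00287). For 2-oxoglutarate metabolism, 9 of 18 genes were higher and 2 lower (median 0.34). IDH3A, a subunit of the NAD-dependent mitochondrial isocitrate dehydrogenase, was 2.09-fold higher (1.06, SE 0.12, adjusted p = 6.03e-06), opposite to IDH2. D2HGDH, which removes hydroxyglutarate, was 1.66-fold lower than in Doxo + Cyta (-0.73, SE 0.14, adjusted p = 0.000525), but against NT it was at -0.31 and not called (adjusted p = 0.131).

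**Figure D5:**
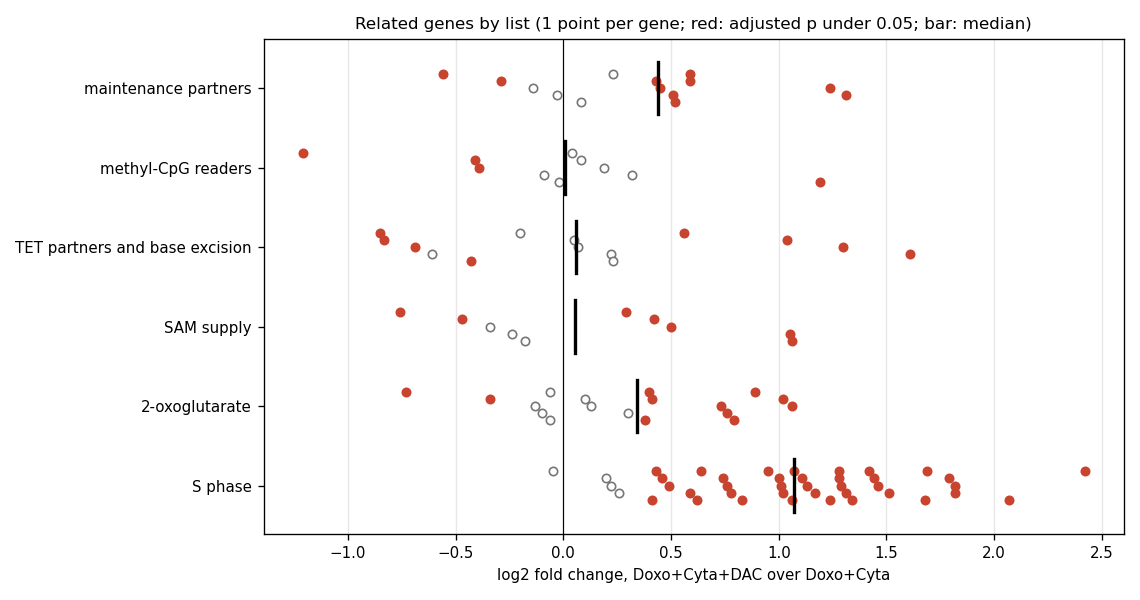
Log2 fold change in Doxo + Cyta + DAC over Doxo + Cyta (horizontal axis) for the tested genes of 6 lists (vertical axis), 1 point per gene. Red points have an adjusted p under 0.05, open points do not, and the vertical bar is the list's median. The S phase list has its median at 1.07 and 0 genes called lower, and the medians of the other 5 lists lie between 0.01 and 0.44.

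The S phase list, 41 tested genes of DNA replication without UHRF1, had the highest median of the 6 lists, with 37 higher and 0 lower (median 1.07). CLSPN, a checkpoint protein of replication forks, led it with a 5.37-fold rise (2.42, SE 0.22, adjusted p = 7.46e-07). The list's mean log2 CPM was 5.92 and 5.96 in NT, 5.85, 5.41 and 5.44 in Doxo, 5.53, 5.66 and 5.52 in Doxo + Cyta and 6.61, 6.63, 6.69 and 6.66 after decitabine. Doxo replicate 4 and Doxo + Cyta replicate 20 were the highest of their groups here, as they were for UHRF1 and DNMT1. DNMT1 and UHRF1 are themselves known to be expressed in step with DNA replication, and the part of S phase in their levels was not tested. In Doxo over NT, 9 of the 41 genes were lower (median -0.36), a count that was 26 without Doxo replicate 4, 2 without Doxo replicate 5 or 6, and 0 when NT replicate 1 or NT replicate 2 was left out. In Doxo + Cyta over NT, 2 of 41 were lower (median -0.35), and 0 to 2 when each library was left out.

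The genes whose log2 CPM followed a member most closely over the 12 libraries were named for the 8 members called in Doxo + Cyta + DAC over Doxo + Cyta. UHRF1 was followed by CTPS1, which makes CTP (Pearson r = 0.998), and MYBBP1A, a nucleolar protein (r = 0.997). DNMT1 was followed by TUBGCP5, of the gamma-tubulin complex (r = 0.994), and CAD, which starts pyrimidine synthesis (r = 0.993). The closest genes to DNMT3B were ADAL and FAM213B (r = 0.962 for both), and those to DNMT3A were USP21, a deubiquitinase (r = 0.982), and PXMP4, a peroxisomal membrane protein (r = 0.972). Those to UHRF2 were HBP1, a transcriptional repressor, and EIF4B, a translation initiation factor (r = 0.992 for both). TET1 was followed by DIP2A (r = 0.987) and ZMYM3 (r = 0.986), TET2 by PHF3 (r = 0.979) and NEK7 (r = 0.977), and IDH2 by ST3GAL3, a sialyltransferase (r = 0.995), and GRAMD1A, a sterol transporter (r = 0.992). Among the members themselves, UHRF1 ran with DNMT1 (r = 0.98) and against UHRF2 (r = -0.97) and IDH2 (r = -0.93). These r values describe 12 libraries that fall into 4 groups, so genes that differ between the decitabine group and the rest reach a high r by that alone.

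All 10 members are protein-coding genes whose GRCh38 positions in the count table overlap those in GENCODE 44, and none shares exonic bases with another gene of the table. The positions below are those of GENCODE 44. DNMT1 (10133342 to 10231286) and UHRF1 (4903080 to 4962154) are both on chromosome 19, on opposite strands. DNMT3A (25227855 to 25342590), TET3 (73984910 to 74108176) and IDH1 (208236229 to 208266074) are on chromosome 2, DNMT3B (32762385 to 32809359) on 20, UHRF2 (6413151 to 6507054) on 9, TET1 (68560337 to 68694487) on 10, TET2 (105145875 to 105279816) on 4 and IDH2 (90083045 to 90102477) on 15.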

How the data were processed

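RNA of the 12 samples was prepared with TruSeq and sequenced as paired reads. The authors trimmed the reads, mapped them to GRCh38 with Bowtie2 2.2.8 and assigned fragments to genes with featureCounts 1.6.0 without using strand, and the deposited table holds these raw counts per gene, with each gene's exon length in bases as another column. Bowtie2 does not split reads at exon junctions. Per the labels each treatment was repeated in separate cultures; NT has 2 libraries, although the series design names 3 untreated replicates.

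Of 26485 rows, 4 with a missing count were left out. The counts were fitted in edgeR 4.0.16 (R 4.3.3) with TMM scaling, filterByExpr and the quasi-likelihood test over all 12 samples in 4 groups. The 6 comparisons of the groups were made, and p-values were adjusted by Benjamini-Hochberg over the 14164 tested genes and called under 0.05. CPM used TMM-scaled totals, log2 CPM a prior count of 2, and FPKM the deposited length. The SE was the log2 fold change over the root of F, and intervals are 95%. The fit was tested on simulated data with 200 changed genes. Alternatives were RLE and upper-quartile scaling, other filters, DESeq2 1.42.0, a fit of the compared groups alone, a threshold of 0.01, leaving out each library and, chosen after seeing the data, an offset for gene length. The members, the lists and the markers were chosen with earlier results of these data known. Named were all members, the called gene with the largest rise and fall of each list in Doxo + Cyta + DAC over Doxo + Cyta (at least 1 CPM), and the 2 genes most correlated with each member called there. No pair of libraries of a group agreed within sampling noise (chi-square per degree of freedom 3.1 or more). No sample column was left unlabelled. Of the cell type markers, 2 are not reported here and were left out of the sums.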

Additional observations from a re-analysis of the deposited data

Results flagged for a closer look

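The FPKM ratio of DNMT1 to UHRF1 in the 4 decitabine libraries was 7.04, 7.78, 6.90 and 7.04, and replicate 31, at 7.78, lay far from the other 3 for this small group. This was 1 of 23 such tests of groups of 4, and chance gives about 1 in 20.

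DNMT1 differed in direction between the relapses when each was set against NT, with -0.70 in Doxo and 0.61 in Doxo + Cyta + DAC, both called. The difference between these effects equals the direct comparison of Doxo + Cyta + DAC with Doxo, 1.31 (SE 0.16, adjusted p = 1.15e-05 in edgeR), with all 4 decitabine libraries above all 3 Doxo libraries. Both effects share the NT libraries, and both calls against NT were lost without NT replicate 1.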

How the results depend on the processing

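No paired analysis was possible because the groups share no replicate numbers. The count of members called kept within 1.5 times its main value under every alternative in Doxo + Cyta over NT and in the 3 comparisons of Doxo + Cyta + DAC. Leaving out each library gave 5 to 6 members against NT, 7 to 8 against Doxo and 7 to 8 against Doxo + Cyta. In Doxo over NT the count of 3 became 0 at an adjusted p under 0.01 and 1 (DNMT3B) with only the compared groups in the fit, and leaving out each library gave 0 to 5. In Doxo + Cyta over Doxo, leaving out each library gave 0 to 2. In Doxo + Cyta + DAC over Doxo + Cyta, the S-adenosylmethionine list had 3 higher and 4 lower with upper-quartile scaling, and 1 in place of 2 genes was lower among the maintenance partners and the 2-oxoglutarate genes with RLE scaling, with no filter, with only the compared groups in the fit and without most single libraries. The S phase genes called lower were 15 with no filter and 3 with only the compared groups in Doxo over NT, and 4 and 0 in Doxo + Cyta over NT, where DESeq2 called 6. Of the called values of single members, 315 alternatives kept direction and call, and 23 kept direction but lost the call. Of the values not called, 406 kept direction and stayed uncalled, 7 became called and 29 changed sign.

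All sign changes were in values that were not called with all libraries, and none was called where the sign differed. With upper-quartile scaling IDH2 in Doxo over NT was -0.01, IDH1 in Doxo + Cyta + DAC over Doxo + Cyta -0.03 and TET1 in Doxo + Cyta over Doxo 0.04. With no filter IDH2 was -0.02 in Doxo over NT and -0.0032 in Doxo + Cyta over NT. With at least 10 counts in every sample TET1 was 0.0023 in Doxo + Cyta over Doxo. With the gene length offset IDH2 was -0.05 in Doxo + Cyta over NT and -0.10 in Doxo + Cyta over Doxo, where TET1 was 0.10. With only the compared groups in the fit IDH2 was -0.01 in Doxo + Cyta over Doxo. Leaving out each library gave ranges of -0.04 to 0.10 for IDH2 in Doxo over NT, -0.32 to 0.13 for TET3 and -0.06 to 0.07 for IDH2 in Doxo + Cyta over NT, -0.03 to 0.13 for TET3 in Doxo + Cyta + DAC over Doxo and -0.04 to 0.12 for IDH1 in Doxo + Cyta + DAC over Doxo + Cyta. In Doxo + Cyta over Doxo the ranges were -0.17 to 0.62 for UHRF1, -0.38 to 0.0038 for UHRF2, -0.22 to 0.25 for TET1, -0.49 to 0.12 for TET2, -0.44 to 0.01 for TET3 and -0.07 to 0.07 for IDH2. The causes were not tested. With NT at 2 libraries, a fit without one of them assumes that the other varies like the rest. Depth limits TET1 most, at 15 to 26 counts in the decitabine libraries.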
